A study of Mus musculus with 2 samples.

Results

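Expression of 10 genes for matricellular and matrix proteins was followed in keratinocytes of mouse skin in which hedgehog signalling had been switched on. The genes were Tnc, Sparc, Postn, Vcan, Thbs1, Dcn, Ogn, Col14a1, Col8a1 and Col18a1. They were chosen by name, with earlier results of these data known. All 10 were found in both count matrices, and they made up 10 of 32286 features. Their levels were read in basal, hedgehog-high, bulge-like and upper follicle keratinocytes.

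In one library (GOF) the mice were Involucrin-CREER/Rosa-SmoM2/Krt14rtTA/Survivin GOF, with a gain of function of Survivin, the product of Birc5. In the other (control) they were Involucrin-CREER/Rosa-SmoM2. Both genotypes carry SmoM2, a constitutively active Smoothened that turns on hedgehog target genes, at the Rosa locus with a Cre that is driven by the involucrin promoter. In the GOF mice the keratin 14 promoter drives rtTA. Skin epidermal epithelial cells were sorted as α6High/CD34-/YFP+, and 10000 cells were loaded per channel for droplet-based 3′ sequencing with the 10x Chromium system. The number, age and sex of the mice, and the induction schedule, were not given in the sources used here. With 1 library per genotype there was no replicate, so no test was possible. Every interval given is a 95% interval of counting error alone, in which amplified molecules with a unique molecular identifier (UMI) are counted once.

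The GOF library held 11438 barcodes and 126329382 UMIs, and the control library 24844 barcodes and 146216083 UMIs, against 8046 cells stated for the control. At least 1500 genes and at most 10% mitochondrial UMIs were found in 6922 GOF and 10993 control barcodes, 22 of which had a barcode sequence present in both libraries. After removal of likely doublets 6494 GOF and 10294 control cells remained, with a median of 12325 and 7648 UMIs. Birc5 stood at 793 CPM (UMIs of the gene per 1000000 UMIs) in GOF keratinocytes and at 55.1 CPM in control keratinocytes, the order of the labels. The libraries differed in sex, since 1804 GOF keratinocytes had Y-linked and no Xist UMIs (male-called) and 3608 had the opposite (female-called), against 7350 male-called and 30 female-called control keratinocytes.

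Cells were clustered without the 10 members. Clusters 7, 10, 11 and 17, in each of which at least 8 of 10 hedgehog-high markers (YFP among the 10) were 2-fold up, formed the hedgehog-high class (1331 GOF and 2480 control cells). Clusters 5 and 6 were called basal (1434 GOF and 1666 control cells), although only 3 and 4 of 17 basal markers were 2-fold up in them, Krt14 among them. Cluster 18 was called bulge-like (219 GOF and 135 control cells, 11 of 15 markers up), and cluster 3 upper follicle (416 GOF and 318 control cells, 10 of 12 markers up, led by Cst6, Aspn and Defb6). Cluster 3 also had 6 bulge and 5 basaloid or follicle progenitor markers 2-fold up. Finer clustering gave a cluster led by Aspn, Sema3e and Egfl6, also leading genes of cluster 3, with 9 bulge and 8 upper follicle markers up. Whether bulge-type cells were mixed into the upper follicle class was not tested. YFP, the reporter of the sort, stood at 30.5 CPM in GOF and 32.3 CPM in control hedgehog-high cells, and at no more than 3.27 CPM in GOF and 6.66 CPM in control cells of the other 3 classes. As YFP was on the list that named the hedgehog-high class, its level is no separate evidence for that name. Cd34, whose product the sort excluded, had 18.7 CPM in GOF and 4.75 CPM in control bulge-like cells. Some clusters came almost entirely from 1 library: cluster 6 held 1206 GOF and 20 control cells, cluster 22 held 70 and 2, cluster 21 held 2 and 1823, and cluster 24 held 0 and 191. Clusters 5, 7 and 17 had more markers of other lists than of their own among their 10 leading genes, so the 2 libraries were compared by cluster number and not by class.

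Matricellular proteins such as tenascin C, periostin, SPARC and thrombospondin 1 are secreted into the extracellular matrix, where they modulate adhesion and growth factor signalling and are not main structural components. Small leucine-rich proteoglycans such as decorin and osteoglycin bind collagen fibrils and growth factors, and versican is a large proteoglycan that binds hyaluronan. In skin, fibroblasts are the best known source of decorin, collagen XIV and versican, while keratinocytes deposit the basement membrane on which basal cells rest.

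Promoter windows are printed for 4 members that stood for the 3 follicular patterns described next. Tnc and Vcan were highest in hedgehog-high cells, Postn in bulge-like cells and Col8a1 in upper follicle cells. Each window runs from 250 bases before to 50 bases after a start site, 5′ to 3′ on the gene's own strand, from RefSeq on GRCm38.p6, in which 7 of the 10 members had an entry (all but Dcn, Col14a1 and Thbs1). The Tnc and Postn tables list 2 windows each, of which 1 is shown. Capitals mark a TATA box (TATAAA, or TATATAA) or a GC box (GGGCGG, or CCGCCC where the box is on the opposite strand).
Tnc, chr4:64046966-64047265, minus strand: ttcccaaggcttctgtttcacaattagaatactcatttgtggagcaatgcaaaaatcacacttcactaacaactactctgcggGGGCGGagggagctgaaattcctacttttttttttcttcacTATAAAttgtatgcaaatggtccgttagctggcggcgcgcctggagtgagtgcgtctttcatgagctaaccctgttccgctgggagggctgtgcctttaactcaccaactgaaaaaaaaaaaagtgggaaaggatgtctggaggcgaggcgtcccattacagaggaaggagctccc
Vcan, chr13:89742463-89742762, minus strand: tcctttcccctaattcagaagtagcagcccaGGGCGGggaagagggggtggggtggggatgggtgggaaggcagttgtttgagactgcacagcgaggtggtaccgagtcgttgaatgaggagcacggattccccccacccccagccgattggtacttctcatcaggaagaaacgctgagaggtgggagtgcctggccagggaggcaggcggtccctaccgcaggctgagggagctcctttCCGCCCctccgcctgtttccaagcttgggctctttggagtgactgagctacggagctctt
Postn, chr3:54360857-54361156, plus strand: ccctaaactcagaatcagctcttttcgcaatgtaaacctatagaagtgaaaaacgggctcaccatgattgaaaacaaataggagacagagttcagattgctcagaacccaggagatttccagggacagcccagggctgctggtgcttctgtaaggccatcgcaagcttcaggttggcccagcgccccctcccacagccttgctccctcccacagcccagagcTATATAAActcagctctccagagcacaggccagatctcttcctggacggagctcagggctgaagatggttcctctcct
Col8a1, chr16:57754688-57754987, minus strand: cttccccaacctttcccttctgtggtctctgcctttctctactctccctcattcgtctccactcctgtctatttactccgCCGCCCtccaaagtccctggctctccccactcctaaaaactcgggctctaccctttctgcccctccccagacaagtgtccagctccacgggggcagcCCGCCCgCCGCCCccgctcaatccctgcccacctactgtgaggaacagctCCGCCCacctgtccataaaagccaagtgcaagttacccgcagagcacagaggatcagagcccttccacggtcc

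In Postn the letters TATAAA began 26 bases before the start site and overlapped TATATAA. In Tnc, TATAAA began 126 bases before the start and GGGCGG 167 bases before it. Vcan held 2 GC boxes and Col8a1 held 4. On either strand, TATAAA was found in 13.6% of 32851 mouse windows of the same length, TATATAA in 3.24% and GGGCGG in 35.7%. The AP-1 motif TGANTCA (7.81% of windows) and the GLI motif GACCACCCA (0.253% of windows) matched no letters in the windows of the 7 members.

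The members were spread over the 4 classes in the same order at the top in both libraries. Dcn, Vcan, Tnc and Col14a1 had their highest level in hedgehog-high cells, Sparc and Ogn in basal cells, Postn, Thbs1 and Col18a1 in bulge-like cells, and Col8a1 in upper follicle cells. A level, in CPM, is the sum of a gene's UMIs in the cells of a class relative to all UMIs of those cells. The computed spread between the highest and the lowest class was widest for Vcan (90.7-fold in GOF, 29.3-fold in control cells). Next came Col14a1 (71.0-fold and 26.9-fold) and Dcn (70.5-fold and 19.6-fold), and Col18a1 had the narrowest spread (3.58-fold and 3.16-fold). The Vcan folds divide by basal levels of 0.727 CPM in GOF and 4.68 CPM in control cells, from which no expression is read below. The same holds for the control fold of Col14a1 (5.90 CPM in basal cells). The size of these folds, and the rank of Vcan as widest, therefore depend on levels that may be background.

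**Figure D1:**
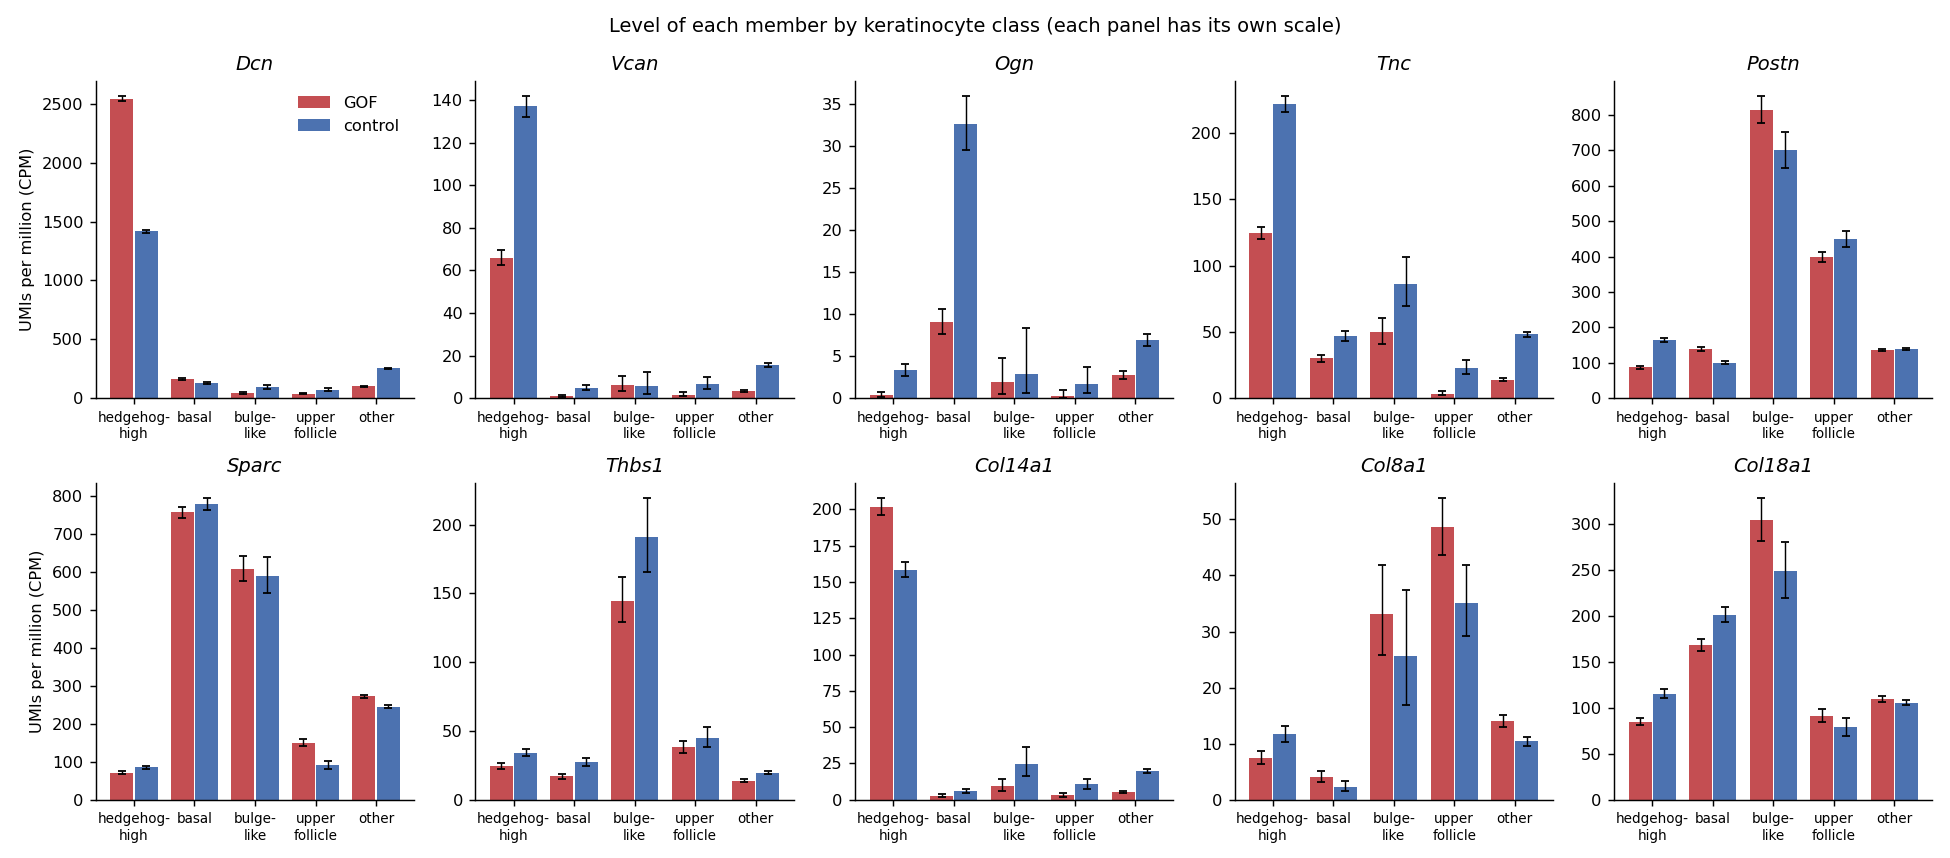
Level of each of the 10 members (CPM) in hedgehog-high, basal, bulge-like, upper follicle and other keratinocytes of the GOF and control libraries. Error bars are exact Poisson 95% intervals, and each panel has its own linear axis. Dcn, Vcan, Tnc and Col14a1 peak in hedgehog-high cells, Sparc and Ogn in basal cells, Postn, Thbs1 and Col18a1 in bulge-like cells and Col8a1 in upper follicle cells of both libraries.

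Among the proteoglycans, Dcn (decorin; chr10:97479609-97518143, plus strand, mm10) marked the hedgehog-high cells. Its level in the GOF library was 2547 CPM (2526 to 2569) in hedgehog-high, 163 CPM in basal, 39.2 CPM in bulge-like and 36.1 CPM in upper follicle cells. Control cells gave 1417 CPM (1402 to 1432) in hedgehog-high, 127 CPM in basal, 90.3 CPM in bulge-like and 72.5 CPM in upper follicle cells. Hedgehog-high cells were thus separate from every other class in both libraries, and the bulge-like and upper follicle levels were not separate from each other. Of all Dcn UMIs, hedgehog-high cells held 86.9% (86.6 to 87.2) in GOF and 65.7% (65.3 to 66.1) in control cells, where they made up 20.5% and 24.1% of the cells. Cluster 21, in the control library alone, held 23.9% of that library's Dcn UMIs at 558 CPM. Without clusters 6, 21, 22 and 24 the hedgehog-high share was 92.8% in GOF and 87.7% in control cells, so most of the gap between the libraries lay in those clusters.

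Vcan (versican; chr13:89655312-89742509, minus strand) was highest in the same class. GOF cells had 66.0 CPM (62.6 to 69.4) in hedgehog-high, 6.07 in bulge-like, 1.49 in upper follicle and 0.727 CPM in basal cells. Control cells had 137 CPM (132 to 142) in hedgehog-high, 6.69 in upper follicle, 5.70 in bulge-like and 4.68 CPM in basal cells. The hedgehog-high level stood far above the others. Upper follicle and basal cells were not separate in the GOF library, nor were the 3 lower classes in the control library. Hedgehog-high cells held 84.8% of Vcan UMIs in GOF cells and 75.4% in control cells, or 88.6% and 90.8% without the 4 clusters of mostly 1 library.

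Ogn (osteoglycin; chr13:49608046-49624501, plus strand) was a low gene with a basal peak. It had 9.08 CPM (7.69 to 10.7) in GOF basal cells, against 0.361 CPM in hedgehog-high, 1.87 CPM in bulge-like and 0.27 CPM in upper follicle cells of that library. Control basal cells had 32.6 CPM (29.5 to 36.0), against 3.28 CPM in hedgehog-high, 2.85 CPM in bulge-like and 1.67 CPM in upper follicle cells. Basal cells were separate from the others, and neighbours among the lower classes were not separate in either library. Basal cells held 49% of Ogn UMIs in GOF and 44.1% in control cells.

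Among the matricellular proteins, Tnc (tenascin C; chr4:63959785-64047015, minus strand) was graded over all 4 classes. In GOF cells it had 124 CPM (120 to 129) in hedgehog-high, 49.9 in bulge-like, 29.9 in basal and 3.38 CPM in upper follicle cells. Control cells had 222 CPM (216 to 228) in hedgehog-high, 86.5 in bulge-like, 46.8 in basal and 22.9 CPM in upper follicle cells. The order was the same in both libraries and each neighbour was separate from the next. Hedgehog-high cells held 66.6% of Tnc UMIs in GOF and 58.3% in control cells, or 78.1% and 72.8% without those 4 clusters.

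Sparc (osteonectin, which binds collagen; chr11:55394500-55423183, minus strand) was highest in basal and lowest in hedgehog-high cells. It stood at 757 CPM (743 to 770) in basal, 609 in bulge-like, 150 in upper follicle and 71.0 CPM in hedgehog-high cells of the GOF library. The control library gave 779 CPM (764 to 795) in basal, 590 in bulge-like, 91.4 in upper follicle and 85.8 CPM in hedgehog-high cells. Hedgehog-high cells were lowest in both libraries, although in control cells they were not separate from upper follicle cells.

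Postn (periostin, a ligand of integrins; chr3:54361109-54391037, plus strand) was highest in bulge-like and next in upper follicle cells. GOF cells had 814 CPM (777 to 853) in bulge-like, 398 in upper follicle, 138 in basal and 86.5 CPM in hedgehog-high cells. Control cells had 701 CPM (651 to 753) in bulge-like, 448 in upper follicle, 164 in hedgehog-high and 100.3 CPM in basal cells. Basal and hedgehog-high cells changed places between the libraries. Bulge-like cells held 10.8% of Postn UMIs in GOF and 4.67% in control cells, in which they gave 2.12% and 1.04% of all UMIs.

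Thbs1 (thrombospondin 1, an activator of latent TGF-β; chr2:118111876-118127133, plus strand) followed the same order at the top. Its level was 145 CPM (129 to 162) in bulge-like, 38.1 in upper follicle, 24.3 in hedgehog-high and 16.9 CPM in basal cells of the GOF library. Control cells had 191 CPM (166 to 219) in bulge-like, 45.2 in upper follicle, 34.1 in hedgehog-high and 27.5 CPM in basal cells. All neighbours were separate in both libraries.

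Among the collagens, Col14a1 (collagen XIV, a fibril-associated collagen; chr15:55307750-55520803, plus strand) kept to hedgehog-high cells. GOF cells had 202 CPM (196 to 208) in hedgehog-high, 9.33 in bulge-like, 3.11 in upper follicle and 2.85 CPM in basal cells. Control cells had 158 CPM (153 to 164) in hedgehog-high, 24.7 in bulge-like, 10.6 in upper follicle and 5.90 CPM in basal cells. Hedgehog-high cells held 92.4% (91.6 to 93.1) of Col14a1 UMIs in GOF cells and 73.4% (72.2 to 74.6) in control cells, or 95.7% and 90.04% without the 4 clusters of mostly 1 library.

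Col8a1 (a chain of the network-forming collagen VIII; chr16:57624258-57754737, minus strand) was the one member with its top level in upper follicle cells. It had 48.6 CPM (43.7 to 53.8) in upper follicle and 33.1 CPM (25.9 to 41.8) in bulge-like cells of the GOF library. Control cells had 35.1 CPM (29.3 to 41.8) in upper follicle and 25.7 CPM (16.9 to 37.4) in bulge-like cells, and these intervals overlapped. Levels in hedgehog-high cells were 7.53 CPM in GOF and 11.7 CPM in control cells, and those in basal cells 3.997 and 2.26 CPM.

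Col18a1 (collagen XVIII, a basement membrane proteoglycan and the precursor of endostatin; chr10:77052178-77166548, minus strand) was the most evenly spread member. Bulge-like cells had 305 CPM (282 to 329) in the GOF library, against 169 in basal, 91.3 in upper follicle and 85.0 CPM in hedgehog-high cells. The control library gave 249 CPM (220 to 281) in bulge-like, 202 in basal, 116 in hedgehog-high and 78.9 CPM in upper follicle cells. The first 2 places were the same in both libraries, and the lower ones were not.

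**Figure D2:**
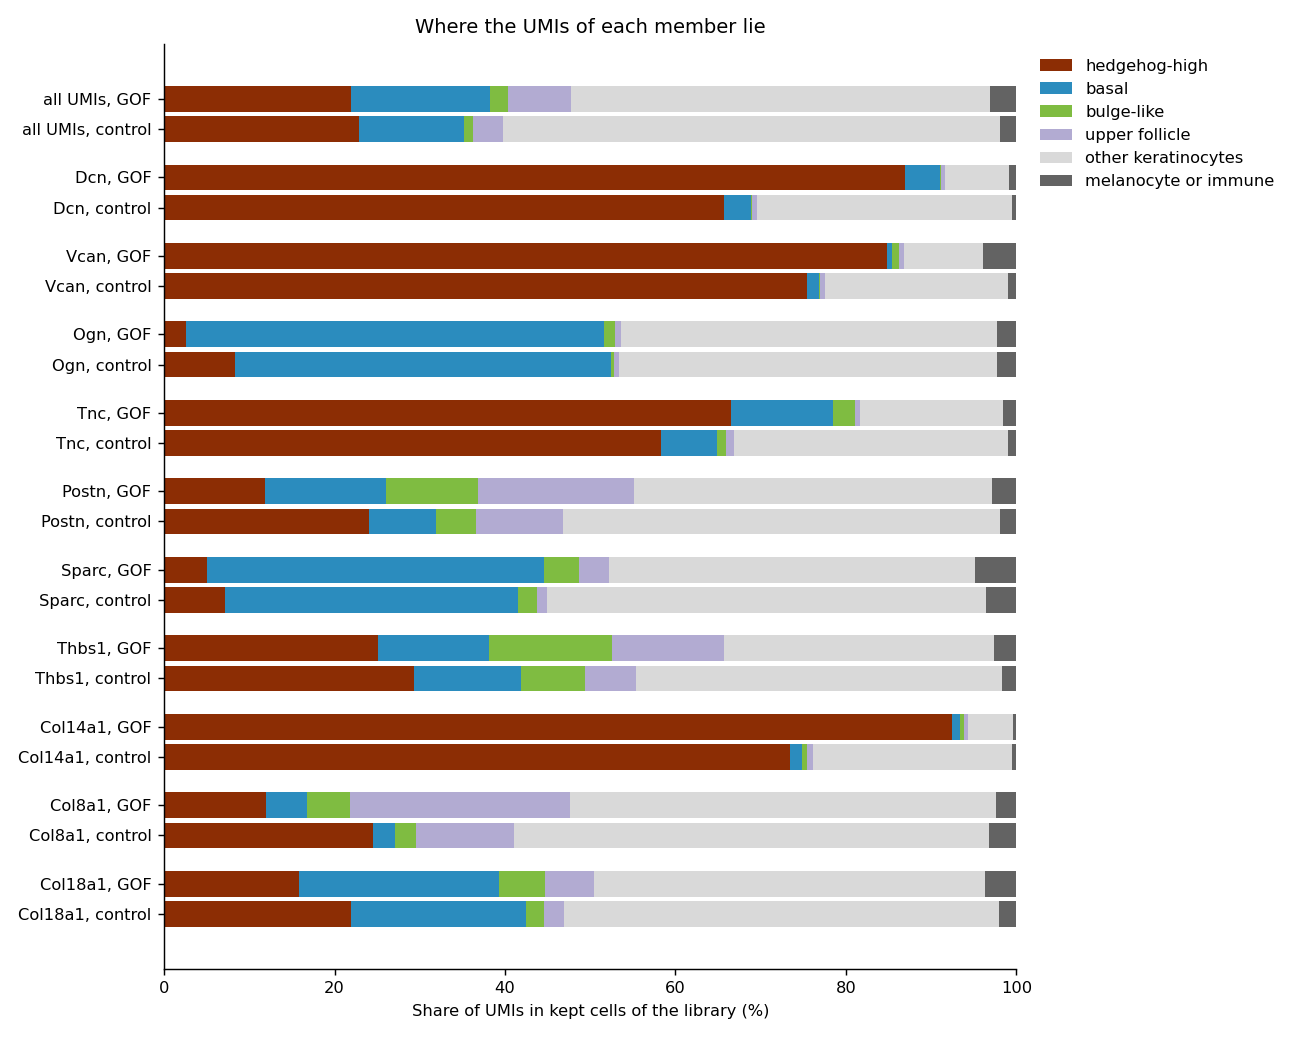
Share of each member's UMIs (percent of all its UMIs in kept cells) that lay in hedgehog-high, basal, bulge-like and upper follicle cells and in the remaining cells, for the GOF and control libraries. Hedgehog-high cells hold 92.4% of Col14a1 and 86.9% of Dcn UMIs in GOF cells, and 73.4% and 65.7% in control cells.

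A substantial part of some members lay outside the 4 classes. The remaining cells held 42.0% of Postn UMIs in GOF and 51.3% in control cells, and about as much of Col8a1 (49.96% and 55.7%). Ogn, too, had a large part of its UMIs in the remaining cells of both libraries. Cluster 14, which no marker list named (Ntrk2, Ptprz1), had 390 CPM of Postn in GOF and 555 CPM in control cells, and 58.1 and 52.7 CPM of Col8a1. Melanocyte cells of cluster 15 had 624 CPM of Sparc in GOF and 686 CPM in control cells, near the level of basal keratinocytes.

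Each class was next set against all other keratinocytes of its own library, counting a member as past 2-fold when the ratio was at least 2 or at most 0.5 with at least 50 UMIs over both sides. The members had been chosen with earlier results of these data known, so their counts beside those of all genes are a description only. In hedgehog-high cells of the GOF library 4 of 10 members were higher and 4 lower, where 22.1% of 13507 genes were past 2-fold (13.5% higher, 8.57% lower). The control library gave 4 higher and 2 lower members, where 19.9% of 13481 genes were past 2-fold (12.8% higher, 7.05% lower). The median log2 ratio of the members was -0.16 in GOF and 0.32 in control cells, beside 0.25 and 0.27 over all genes, so the set as a whole was split rather than shifted. The higher members were Col14a1 (43.9-fold, 39.4 to 49.1, in GOF and 9.23-fold, 8.66 to 9.84, in control cells), Vcan (25.6-fold and 10.5-fold), Dcn (24.3-fold and 6.37-fold) and Tnc (7.15-fold and 4.70-fold). These folds rest in part on the clusters that 1 library lacks. Without clusters 6, 21, 22 and 24 they were 67.7-fold in GOF and 22-fold in control cells for Col14a1, 33.2-fold and 25.9-fold for Vcan, 39.995-fold and 17.2-fold for Dcn, and 10.6-fold and 6.39-fold for Tnc. Sparc (ratio 0.189 in GOF and 0.260 in control cells) and Ogn were lower in both libraries. The ratio was 0.477 in GOF and 1.07 in control cells for Postn, and 0.479 and 1.12 for Col8a1.

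Basal cells had 2 higher and 4 lower members in GOF (16.7% of genes past 2-fold, 1.99% higher and 14.7% lower) and 2 higher and 5 lower in control cells (18.1%, 1.82% and 16.3%). The higher members were Sparc (3.52-fold, 3.44 to 3.60, in GOF and 3.89-fold, 3.80 to 3.99, in control cells) and Ogn (4.97-fold and 5.76-fold). Col18a1, with 1.59-fold and 1.85-fold, stayed short of the threshold.

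Bulge-like cells had the most higher members, 5 of 10 in both libraries, with 3 lower in GOF (23.7% of genes past 2-fold, 11.9% higher and 11.7% lower) and 4 lower in control cells (24.2%, 10.9% and 13.3%). Thbs1 was 7.79-fold higher (6.88 to 8.80) in GOF and 7.64-fold (6.58 to 8.82) in control bulge-like cells. Postn was 5.61-fold and 4.66-fold higher, Col18a1 2.70-fold and 2.09-fold, Col8a1 2.47-fold and 2.43-fold, and Sparc 2.03-fold and 2.19-fold. The median log2 ratio of the members was 0.65 in GOF and 0.52 in control cells, beside 0.13 and 0.09 over all genes.

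Upper follicle cells had 2 higher and 6 lower members in both libraries (17.9% of genes past 2-fold in GOF, 5.37% higher and 12.5% lower, and 19%, 6.48% and 12.6% in control cells). The 2 were Col8a1 (4.40-fold, 3.89 to 4.97, in GOF and 3.58-fold, 2.95 to 4.31, in control cells) and Postn (2.84-fold and 3.09-fold). The median log2 ratio of the members was -2.35 in GOF and -1.80 in control cells, beside -0.05 and -0.02 over all genes.

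Droplets also take up free RNA, which can give a few UMIs in cells that do not express a gene. One comparison was cluster 13, which carried 11 of 11 sebaceous gland markers 2-fold up (100 GOF and 253 control cells, with a median of 26089 and 17270 UMIs). There Dcn stood at 12.6 CPM in GOF and 26.6 CPM in control cells, Tnc at 2.05 and 11.3 CPM, Col14a1 at 1.02 and 6.54 CPM, and Vcan at 3.07 and 4.51 CPM. The Vcan levels of GOF basal (0.727 CPM) and upper follicle (1.49 CPM) cells, and the Col14a1 level of control basal cells (5.90 CPM), lay below those of cluster 13, and the control basal level of Vcan (4.68 CPM) was close to it. No expression is read from these levels. Sparc, at 16.03 CPM in GOF and 18.9 CPM in control cluster 13, and Postn, at 18.1 and 16.7 CPM, were far below their levels in all 4 classes. The other comparison, barcodes of under 1000 UMIs (426 GOF and 908 control), gave much higher levels for the same genes. There Dcn had 523 CPM in GOF and 446 CPM in control barcodes, above its basal level, and Sparc had 111 and 137 CPM, above its hedgehog-high level. Postn had 115 and 243 CPM, Tnc 64.2 and 104 CPM, Col14a1 43.9 and 91.9 CPM, and Vcan 13.5 and 68.6 CPM, from 4 GOF and 50 control UMIs. Whether these barcodes hold free RNA or small cells cannot be told apart here, and the part of free RNA in the lower levels was not tested. The levels in the class where each of these 6 genes was highest lay above both comparisons in both libraries. In the barcodes of under 1000 UMIs, Col18a1 had 94.6 and 129 CPM, above its hedgehog-high and upper follicle levels in both libraries. Thbs1 had 30.4 and 48.0 CPM there, above its hedgehog-high and basal levels in both libraries and its upper follicle level in control cells. Ogn had 3.38 and 6.86 CPM and Col8a1 3.38 and 15.1 CPM, each from 1 GOF UMI. The class orders of these members below the top carry the same limit.

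Shares of cells with a UMI were compared after every cell had been thinned to 3000 UMIs, which left out 4 GOF and 56 control hedgehog-high cells. Dcn was detected in 83.8% (81.7 to 85.7) of thinned GOF and 66.5% (64.5 to 68.3) of thinned control hedgehog-high cells, and in 92.7% and 79.4% before thinning. The same thinned share was 31.3% in GOF and 30.1% in control basal cells, 15.1% and 22.2% in bulge-like cells, 9.40% and 20% in upper follicle cells, and 2.0% and 9.52% in cluster 13. Dcn detection in hedgehog-high and basal cells was thus above that of cluster 13. Sparc was detected in 84.8% of GOF and 83.6% of control basal cells, beside 3.0% and 5.95% in cluster 13. Postn was detected in 69.3% and 71.9% of bulge-like and in 52.5% and 55.9% of upper follicle cells, beside 2.0% and 3.97% in cluster 13. Both genes were therefore carried by most cells of their class.

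Vcan and Tnc were detected in fewer cells. Thinned hedgehog-high cells had a Tnc UMI in 26.5% of GOF and 42.6% of control cells (63.6% and 65.5% unthinned), and a Vcan UMI in 12.96% and 23.4% (36.2% and 39.8% unthinned). In cluster 13 the Tnc share was 1.0% and 1.98%, and the Vcan share 1.0% and 1.59%. Col14a1 went the other way, with 36.4% of GOF and 24.9% of control hedgehog-high cells (64.7% and 41.9% unthinned). Ogn was found in 2.66% of GOF and 8.68% of control basal cells.

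Within hedgehog-high cells the number of Dcn UMIs per cell varied widely. Out of 3000 UMIs, the median cell had 5 Dcn UMIs in GOF (quartiles 1.5 and 12, highest 35) and 2 in control cells (quartiles 0 and 7, highest 38). At least 10 Dcn UMIs were found in 31.3% of GOF and 16.5% of control hedgehog-high cells. By cluster, the median was 8 in GOF and 1 in control cells of cluster 10, 7 and 3 in cluster 17, 6 and 4 in cluster 11, and 1 and 0 in cluster 7.

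The 4 hedgehog-high clusters differed in which matrix genes they carried. Cluster 10 (led by Prss35, Cilp and Basp1) had the most Vcan and Col14a1, cluster 11 (Dio2, Nptx1, Igfbp5) the most Tnc, cluster 7 (Ccer2, Shisal2b, Ncam1) the most Postn and the least Dcn, and cluster 17 (Krt25, Krt73, Krt71) was cycling, with 12 of 12 cycling markers 2-fold up. Tnc stood at 271 CPM in GOF and 459 CPM in control cells of cluster 11, against 98.7 and 94.6 CPM in cluster 10. Vcan showed the opposite, with 37.0 CPM in GOF and 56.5 CPM in control cells of cluster 11, against 91.8 and 251 CPM in cluster 10. Col14a1 had 73.3 and 29.8 CPM in cluster 11, against 320 and 354 CPM in cluster 10. Tnc and Vcan thus peaked in different clusters of the same class when all cells were taken. Among male-called GOF cells the Vcan levels of clusters 7, 11 and 10 were not separate. They were 91.1 CPM (75.9 to 108) in cluster 7, 87.9 CPM (62.8 to 120, from 40 UMIs in 38 cells) in cluster 11 and 79.7 CPM (68.9 to 91.8) in cluster 10. Female-called GOF cells had 40.1, 26.1 and 98.7 CPM in the same order of clusters.

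**Figure D3:**
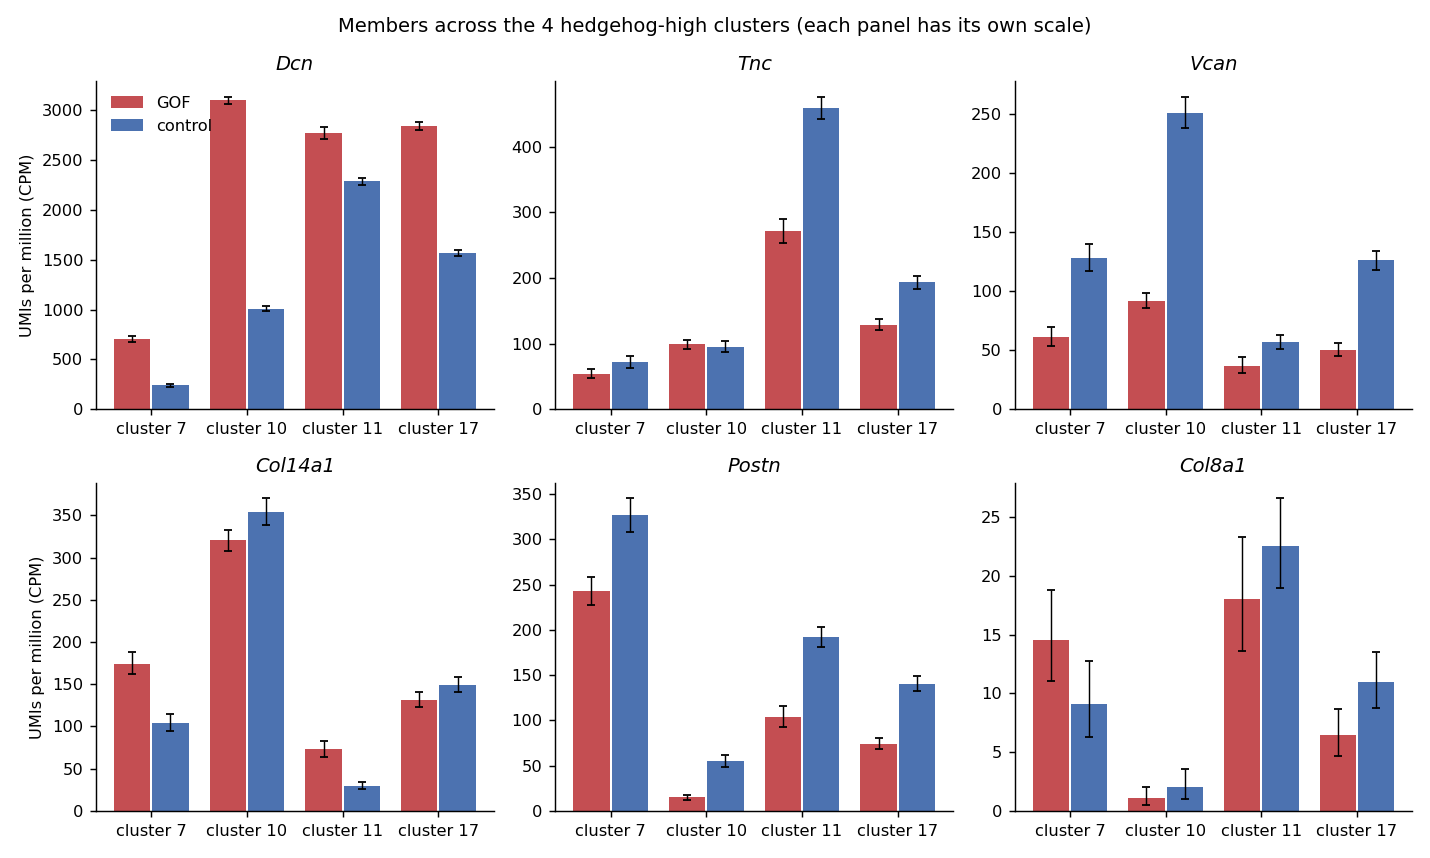
Level of Dcn, Tnc, Vcan, Col14a1, Postn and Col8a1 (CPM) in hedgehog-high clusters 7, 10, 11 and 17 of the GOF and control libraries. Error bars are exact Poisson 95% intervals, and each panel has its own linear axis. Over all cells Vcan and Col14a1 are highest in cluster 10 and Tnc in cluster 11 in both libraries, and Dcn is lowest in cluster 7.

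Set against cluster 10, cluster 11 had 3 members higher and 2 lower of 9 measured in GOF (8.11% of genes past 2-fold, 3.5% higher and 4.62% lower) and 6 higher and 2 lower of 10 in control cells (9.96%, 5.13% and 4.83%). Tnc was 2.74-fold higher in GOF and 4.85-fold in control cells, Postn 6.89-fold and 3.49-fold, and Col8a1 16.7-fold and 11.3-fold, from a cluster 10 level of only 1.08 and 2.002 CPM. Col14a1 (ratio 0.229 in GOF and 0.084 in control cells) and Vcan (0.403 and 0.225) were lower. Dcn had a ratio of 0.895 in GOF and 2.27 in control cells. Cluster 7 against cluster 10 gave 2 higher and 2 lower of 9 members in GOF (6.57% of genes past 2-fold, 3.52% higher and 3.05% lower), and 1 higher and 2 lower of 8 in control cells (4.66%, 2.56% and 2.1%). Postn, at 243 CPM in GOF and 326 CPM in control cells of cluster 7, was higher than in cluster 10 (15.1 and 55.0 CPM). Dcn, at 705 and 241 CPM in cluster 7, was lower than in cluster 10 (3100 and 1010 CPM). The GOF level of Postn in cluster 10 was no higher than in cluster 13 (18.1 CPM).

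Shares of single cells with these genes depend on how often each gene is detected in a cluster. No expected shares were computed, so they restate the cluster levels and are no separate evidence. Of thinned cluster 11 cells, 45.1% in GOF and 63.5% in control cells had Tnc and no Vcan, while 5.96% and 3.96% had Vcan and no Tnc. In cluster 10, 16.6% and 11.9% had Tnc and no Vcan, and 13.5% and 31.5% had Vcan and no Tnc. Over the whole hedgehog-high class 3.47% of GOF and 7.55% of control cells had both. A UMI of none of Tnc, Vcan, Dcn and Col14a1 was found in 8.44% of GOF and 12.6% of control hedgehog-high cells, against 89.4% and 70.8% of upper follicle cells.

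GOF and control cells were then compared within 7 clusters, the 4 hedgehog-high clusters, basal cluster 5, bulge-like cluster 18 and upper follicle cluster 3. Of 60 pairs of a member and a cluster with at least 50 pooled UMIs, 16 were past 2-fold. Over all genes, the share past 2-fold ran from 2.15% in cluster 3 to 3.7% in cluster 5. Dcn was higher in GOF cells of 2 hedgehog-high clusters and lower in bulge-like and upper follicle cells, Vcan was lower in 3 of the hedgehog-high clusters, and the remaining calls were mostly lower in GOF cells.

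In cluster 10, 3 of 8 members were past 2-fold, 1 higher and 2 lower (2.88% of genes past 2-fold, 1.29% higher and 1.59% lower). Dcn had 3100 CPM in GOF and 1010 CPM in control cells (3.07-fold higher, 2.98 to 3.16). Vcan had 91.8 CPM in GOF and 251 CPM in control cells (ratio 0.366, 0.335 to 0.400), and Postn 15.1 and 55.0 CPM (ratio 0.275, 0.221 to 0.339). Cluster 10 thus held more Dcn and less Vcan and Postn in GOF cells, while Tnc (ratio 1.04), Col14a1 (0.905) and Col18a1 (93.9 and 94.1 CPM) lay close together in both libraries. At coarser and finer clustering, where cells of cluster 7 joined cluster 10, the Postn difference was short of 2-fold (log2 ratio -0.87 and -0.83). In the 1 finer cluster that held most cells of cluster 10, Postn had -1.33 and Vcan -1.18, while Dcn had 0.80, short of 2-fold.

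In cluster 7, 3 of 9 members were past 2-fold, 1 higher and 2 lower (2.48% of genes, 1.05% higher and 1.43% lower). Dcn had 705 CPM in GOF and 241 CPM in control cells (2.93-fold higher, 2.71 to 3.16). Vcan had 61.3 and 128 CPM (ratio 0.479, 0.409 to 0.560), and Thbs1 11.3 and 27.6 CPM (ratio 0.409, 0.281 to 0.586, from 45 and 103 UMIs). The directions of Dcn and Vcan were those of cluster 10. With male-called cells alone the log2 ratio of Thbs1 was -0.85 and that of Vcan -0.54, both short of 2-fold.

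In cluster 17, 1 of 9 members was past 2-fold, and it was lower (2.25% of genes, 1.09% higher and 1.16% lower). Vcan had 50.2 CPM in GOF and 126 CPM in control cells (ratio 0.399, 0.351 to 0.452). Dcn, with 2847 and 1571 CPM, was 1.81-fold higher (1.77 to 1.85), which did not pass the threshold.

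In cluster 11, 2 of 10 members were past 2-fold, 1 higher and 1 lower (3.63% of genes, 1.39% higher and 2.24% lower). Col14a1 had 73.3 CPM in GOF and 29.8 CPM in control cells (2.46-fold higher, 2.02 to 3.0). Ogn had 0.948 and 7.52 CPM (ratio 0.126, 0.0251 to 0.392, from 3 and 47 UMIs). Dcn differed little there, with 2775 and 2287 CPM (1.21-fold, 1.18 to 1.25), while Vcan (ratio 0.655) and Tnc (0.590) were below 1 and short of the threshold. The Col14a1 difference was short of 2-fold at coarser and finer clustering (log2 ratio 0.86 and 0.95), and that of Ogn with male-called cells alone (-0.87).

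**Figure D4:**
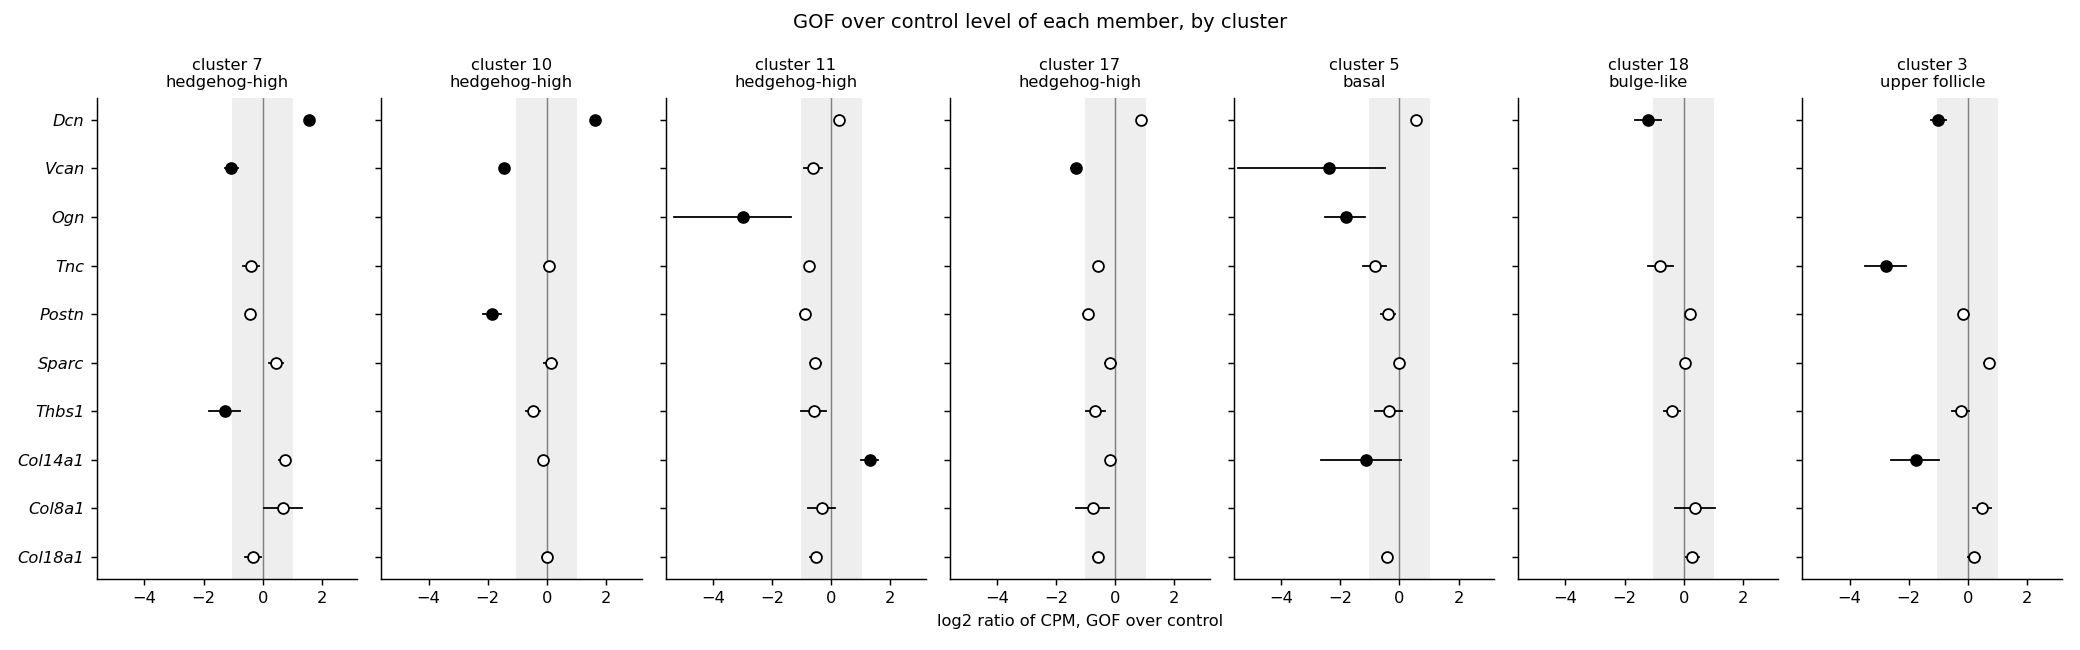
Log2 ratio of GOF to control level for each member with at least 50 pooled UMIs in 7 clusters. Bars are exact 95% intervals of counting error, and a grey band covers ratios within 2-fold either way. Dcn lies above 2-fold in clusters 7 and 10 and below it in clusters 18 and 3, and Vcan lies below 2-fold in clusters 7, 10, 17 and 5.

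Outside the hedgehog-high cells, basal cluster 5 had 3 of 9 members past 2-fold, all lower (3.7% of genes, 0.69% higher and 3.01% lower). Ogn had a ratio of 0.285 (0.174 to 0.441, from 21 GOF and 400 control UMIs). Vcan had a ratio of 0.190 (0.0225 to 0.719, from 2 and 57 UMIs) and Col14a1 of 0.452 (0.160 to 1.03, from 6 and 72 UMIs), so both rested on few GOF UMIs, at levels near those of cluster 13, and the interval of Col14a1 included 1. Sparc, the most prominent member of that cluster, had a ratio of 1.0 (0.949 to 1.05).

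Bulge-like cluster 18 had 1 of 7 members past 2-fold, lower (2.78% of genes, 2.04% higher and 0.746% lower). It was Dcn, with 39.2 CPM in GOF and 90.3 CPM in control cells (ratio 0.434, 0.320 to 0.588). The 3 members that peaked there, Postn (ratio 1.16), Thbs1 (0.757) and Col18a1 (1.22), did not pass.

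Upper follicle cluster 3 had 3 of 8 members past 2-fold, all lower (2.15% of genes, 0.823% higher and 1.32% lower). Tnc had 3.38 CPM in GOF and 22.9 CPM in control cells (ratio 0.148, 0.0905 to 0.234, from 25 and 82 UMIs). Col14a1 had a ratio of 0.294 (0.167 to 0.506, from 23 and 38 UMIs) and Dcn of 0.498 (0.418 to 0.593), a value at the threshold that moved to a log2 ratio of -0.80 when doublets were kept. All 3 were the genes of the hedgehog-high cells, and in cluster 13 the same 3 genes were also lower in GOF than in control cells (Tnc 2.05 and 11.3 CPM, Col14a1 1.02 and 6.54 CPM, Dcn 12.6 and 26.6 CPM). The part of free RNA in these differences was not tested. Col8a1, the member that peaked in this cluster, had a ratio of 1.38.

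The median log2 ratio of the members was below that of all genes in each of the 7 clusters. It was -0.32 in cluster 7 (all genes 0.06), -0.07 in cluster 10 (0.09), -0.56 in cluster 11 (0.08), -0.59 in cluster 17 (0.05), -0.43 in cluster 5 (0.03), 0.04 in cluster 18 (0.12) and -0.21 in cluster 3 (0.05).

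Because the libraries differed in sex, the levels were also read in male-called and female-called GOF cells beside male-called control cells. Only 7 control hedgehog-high cells were female-called, so no female-called control level was read. In a difference between female-called GOF and male-called control cells, sex and genotype cannot be told apart. In cluster 10, Dcn had 2698 CPM in male-called GOF and 3457 CPM in female-called GOF cells, against 1018 CPM in male-called control cells. In cluster 7 the same 3 levels were 624 and 748 CPM, against 243 CPM, and in cluster 17 they were 2493 and 2997 CPM, against 1558 CPM. Both kinds of GOF cell thus lay above male-called control cells in these 3 clusters, and female-called GOF cells above male-called GOF cells. In cluster 11 male-called GOF cells had 2098 CPM and female-called GOF cells 2834 CPM, either side of the 2349 CPM of male-called control cells.

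Vcan had 79.7 CPM in male-called and 98.7 CPM in female-called GOF cells of cluster 10, against 260 CPM in male-called control cells, and 52.3 and 42.8 CPM, against 131 CPM, in cluster 17. In cluster 7 the male-called GOF level (91.1 CPM) lay closer to the control level (132 CPM) than the female-called level did (40.1 CPM). In cluster 11 male-called GOF cells (87.9 CPM, 62.8 to 120) were not separate from control cells (60.8 CPM, 54.1 to 68.0). Female-called GOF cells of cluster 11 (26.1 CPM) lay below control cells. Against male-called control cells, Vcan was thus lower in male-called and in female-called GOF cells of clusters 10, 17 and 7. In cluster 11 it was lower in female-called GOF cells alone, where sex and genotype cannot be told apart. Col14a1 in cluster 11 had 96.7 and 67.1 CPM, against 31.8 CPM. Some differences past 2-fold appeared with male-called cells alone. The log2 ratio of GOF to control was then -1.35 for Postn in cluster 11, -1.44 for Postn in cluster 17, 1.12 for Col14a1 in cluster 7 and -1.13 for Thbs1 in cluster 18.

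**Figure D5:**
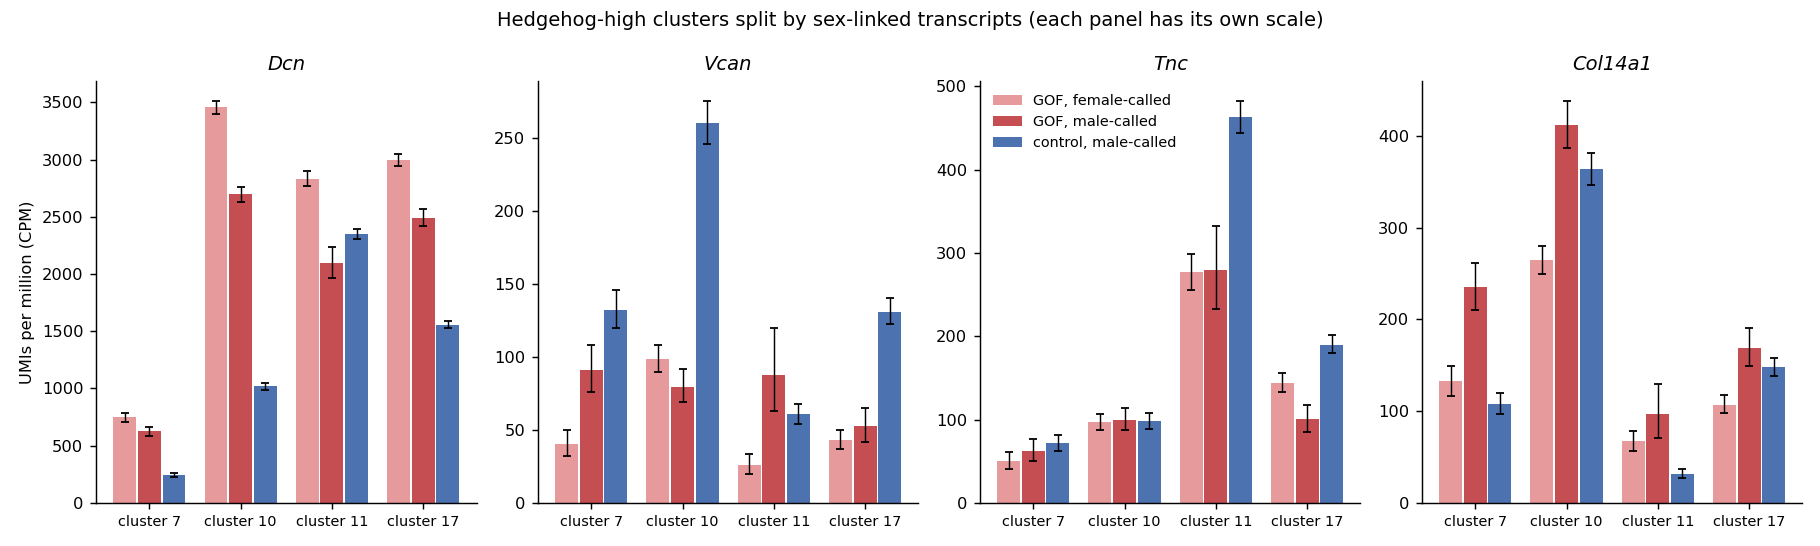
Levels of Dcn, Vcan, Tnc and Col14a1 (CPM) in male-called GOF, female-called GOF and male-called control cells of clusters 7, 10, 11 and 17. Error bars are exact Poisson 95% intervals, and each panel has its own linear axis. Dcn is higher in both kinds of GOF cell than in control cells of clusters 7, 10 and 17, and Vcan is lower in both in the same clusters.

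Dcn, Col14a1 and Vcan are fibroblast products in skin, so fibroblast markers were read beside them. Of 12 fibroblast markers, 11 had at least 1 UMI in GOF hedgehog-high cells (Mfap5 had none, and Dpt only 1). In control hedgehog-high cells 9 had at least 1 UMI (Dpt, Pdgfrb and Mfap5 had none). Their summed level was 30.02 CPM in GOF and 42.7 CPM in control hedgehog-high cells. Several of them were highest there among the 4 classes. Col1a2, a chain of collagen I, had 12.1 CPM in GOF and 20.5 CPM in control hedgehog-high cells, and no more than 0.933 and 2.85 CPM in the other 3 classes. Lum (lumican) had 14 UMIs in GOF and 13 in control hedgehog-high cells, of 14 and 17 in all keratinocytes. Col3a1 had 11 of 12 GOF UMIs there, but 4 of 93 control UMIs. Col1a1 was low, with 0.586 and 0.432 CPM, and Pdgfra had 1 UMI in each library.

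Control cluster 21, which no class holds, had at least 1 UMI of all 12 fibroblast markers over its 1823 cells, with a sum of 51.5 CPM. It held 289 of the 321 Col1a1 UMIs and 85 of the 93 Col3a1 UMIs of control keratinocytes. Of its 1100 marker UMIs, Col1a2 gave 291 and Col6a1 290, while Mfap5 had 1, Pdgfra 2, Lum 3, Pi16 4 and Dpt 5. The sum over the list was 12.8 and 4.36 CPM in basal, 21.5 and 32.3 CPM in upper follicle, and 166 and 151 CPM in bulge-like cells, where Col6a1 gave 134 and 112 CPM. The part of fibroblast RNA in the levels of Dcn, Vcan and Col14a1 was not tested.

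Genes with the most similar pattern were sought among 12300 genes over 41 sums of a cluster and a library, where sums of 1 library share its depth and preparation. They included Col4a1 (Pearson r = 0.942) and Col27a1 (0.940) for Vcan. They were, for Col14a1, Atp6v1b1 (0.967), Gm973 and Mycn (0.959), for Tnc, Kcns3 (0.932), Igfbp7 (0.928) and Plod1 (0.897), and for Dcn, Zfp64 (0.930), Synm and Wnt6. Mycn was among the genes that had named the hedgehog-high clusters. Sparc ran closest to Antxr1 (0.931), Col17a1 and Col16a1, Col18a1 to Map6 (0.944), Itgb4 (0.926) and Col17a1 (0.921), and Ogn to Gdpd2 (0.863), Mettl7a3 and Tigd4. Col17a1 and Itgb4 encode parts of the hemidesmosome, which anchors basal cells. Postn ran closest to Igfbp6 (0.894), Nbl1 and Pir, Thbs1 to Cpne8 (0.852), Dusp6 and Coq8a, and Col8a1 to Gstm1 (0.890), Angptl2 and Adgrl2. Between members, the highest values were 0.935 for Vcan and Col14a1, 0.887 for Postn and Col8a1, 0.860 for Sparc and Col18a1, and 0.846 for Dcn and Tnc. By Spearman correlation 14 of the 30 neighbours were the same.

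Other matrix genes were read in 7 lists for context. Over all genes, 13.5% were higher and 8.57% lower in GOF hedgehog-high cells (median log2 ratio 0.25). In control hedgehog-high cells 12.8% were higher and 7.05% lower (0.27). In hedgehog-high cells, basement membrane genes stood out with 8 higher and 0 lower of 14 measured in GOF (median log2 ratio 1.38) and 8 higher and 1 lower of 15 in control cells (1.05). Col4a1, a chain of collagen IV, had 266 CPM in GOF and 190 CPM in control hedgehog-high cells, and Hspg2 (perlecan) had 147 and 160 CPM. Collagen and proteoglycan assembly enzymes had 7 higher and 0 lower of 14 in GOF (1.16) and 6 higher and 1 lower of 14 in control cells (0.79), among them Has3, a hyaluronan synthase (19.9 and 16.4 CPM), and Csgalnact1, which starts chondroitin sulfate chains (18.2 and 13.5 CPM). Matrix proteases and inhibitors had 5 higher and 1 lower of 14 in GOF and 5 higher and 2 lower of 14 in control cells. Adamts1 (107 and 94.1 CPM) and Adamts9 (90.7 and 79.2 CPM), proteases that cleave versican, were among the higher ones.

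The remaining lists were mixed in hedgehog-high cells. Interstitial collagens had 4 higher and 2 lower of 9 in GOF and 4 and 4 of 11 in control cells, with Col27a1 (143 and 133 CPM) higher. Other proteoglycans had 2 higher and 2 lower of 5 in GOF and 2 and 1 of 4 in control cells, with Bgn (biglycan, 94.9 and 92.9 CPM) higher. Other matricellular genes had 3 higher and 5 lower of 12 in GOF and 2 and 4 of 12 in control cells, with Fn1 (fibronectin, 13.03 and 13.8 CPM) higher. Receptors of the members had 2 higher and 3 lower of 14 in GOF and 2 and 3 of 15 in control cells, with Itga8, an integrin chain that pairs to bind tenascin C and osteopontin, higher. Itga8 was also past 2-fold higher in bulge-like cells of both libraries and in GOF upper follicle cells.

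In bulge-like cells, other matricellular genes had 7 higher and 1 lower of 12 in GOF (median log2 ratio 1.41) and 6 higher and 0 lower in control cells (0.99), among them Ccn2 (connective tissue growth factor, 472 and 412 CPM), which is also a bulge marker. Over all genes, 11.9% were higher and 11.7% lower in GOF bulge-like cells (median log2 ratio 0.13), and 10.9% and 13.3% in control bulge-like cells (0.09). The syndecans Sdc1 (973 and 795 CPM) and Sdc4 (901 and 743 CPM), heparan sulfate receptors of thrombospondin and tenascin, had high levels there. Upper follicle cells had 0 higher and 8 lower of 14 basement membrane genes in GOF (-1.04) and 0 and 7 of 15 in control cells (-0.93). There, 5.37% of all genes were higher and 12.5% lower in GOF cells (-0.05), and 6.48% and 12.6% in control cells (-0.02). Aspn (asporin), a small leucine-rich proteoglycan, had 102 CPM in GOF and 164 CPM in control upper follicle cells. In basal cells Col16a1 (78.1 and 80.6 CPM) was the 1 higher of 9 interstitial collagens in GOF and of 11 in control cells, while 6 and 9 were lower (median log2 ratio -2.42 and -2.28). In basal cells 1.99% of all genes were higher and 14.7% lower in GOF (-0.15), and 1.82% and 16.3% in control cells (-0.20). Between GOF and control cells, no gene of the 7 lists was past 2-fold in cluster 7, where 2.48% of all genes were. In cluster 10, Mmp9 was higher and Col12a1 and Matn2 were lower, and in cluster 3 Col4a1, Col4a2, Frem2 and Ccn1 were among the lower genes. Basal cluster 5 had the longest set of lower genes and no higher one: Col5a2, Col27a1, Frem2, Col4a2, Thbs2, Ccn2, Cd36, Adamts9, Adamts1 and P3h1. Over all genes, 3.01% were lower and 0.69% higher in GOF cells of cluster 5. In cluster 11 Adamts1 was higher and Fras1 and Spock2 lower, in cluster 17 Has2 was higher and Fras1 lower, and in cluster 18 Col4a6 was higher and Bgn and Adamts1 lower.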

How the data were processed

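The deposited files hold UMI counts per gene and barcode for 2 libraries, with mm10 annotation. Per the submitters' processing notes and the file headers, the authors used Cell Ranger 6.1.1, and the notes also name R 4.3.0 and Seurat 4.2.0 without a role. The deposited barcodes were not limited to the stated cells, and the counts were used as deposited.

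Barcodes with at least 1500 genes and at most 10% mitochondrial UMIs were kept. The scrublet caller marked 0 barcodes by its automatic threshold, so the highest scores (about 6% of each library) were removed. Cells were clustered with scanpy 1.11.5 (numpy 2.4.6, scipy 1.17.1, igraph 0.11.9, Python 3.11.15) on 2000 variable genes, 30 components, 15 neighbours and Leiden resolution 1, giving 25 clusters. Clustering did not use the 10 members, Birc5, or genes of mitochondria, ribosomal proteins or sex chromosomes that tell the sexes apart. Clusters were named from marker lists. No value columns were left unassigned.

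Levels are summed UMIs as CPM with exact Poisson 95% intervals, ratios have exact conditional intervals, and shares have exact Clopper-Pearson intervals. These cover counting error only. A ratio needed 50 pooled UMIs, was called past 2-fold, and was computed over all genes to give the background. Similarity used log2(CPM + 1) in sums of at least 50 cells and genes with at least 200 UMIs. All members are described, other list genes are named where among the 3 largest ratios or the 3 highest levels of their list, and the 3 most similar genes are named per member, except 1 that is not reported here. The ratios and calls were checked on simulated counts. The members, lists and class names were chosen with earlier results of these data known.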

Additional observations from a re-analysis of the deposited data

Results flagged for a closer look

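Dcn and Col14a1 were past 2-fold in opposite directions in different clusters when GOF was set against control cells, and the difference between clusters was not tested. For Dcn the log2 ratio of GOF to control level was 1.55 in cluster 7 and 1.62 in cluster 10, both hedgehog-high, and -1.20 in bulge-like cluster 18 and -1.01 in upper follicle cluster 3. For Col14a1 it was 1.30 in hedgehog-high cluster 11, -1.15 in basal cluster 5 and -1.77 in upper follicle cluster 3.

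The negative values belong to clusters in which both genes were low beside hedgehog-high cells. In sebaceous gland-like cluster 13 Dcn was also lower in GOF cells, with 12.6 CPM against 26.6 CPM in control cells, as was Col14a1, with 1.02 CPM against 6.54 CPM. Dcn in basal cluster 5 went the other way, with a log2 ratio of 0.57, short of 2-fold. The part of free RNA in these differences was not tested.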

How the results depend on the processing

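Hedgehog-high cells had the highest level of 4 members (Tnc, Vcan, Dcn and Col14a1) in both libraries of the main run. In the 18 readings of this count under alternatives it stayed the same, by a rule that allows small shifts. Which members made up the count was not recorded there, and some alternatives did not give it. Of 60 pairs of a member and a cluster, 16 were past 2-fold, against 7 of 45 at Leiden resolution 0.5 and 10 of 50 at resolution 2, where a cluster was matched to the one that gave most of its cells, so that cells of cluster 7 joined cluster 10. Every other alternative gave between 11 and 19, among them 15 of 57 when each cluster was instead matched to the resolution 2 cluster with most of its cells. The share over all genes was computed for the main run alone, so the counts of the alternatives have none beside them. The log2 ratio of Col14a1 in cluster 5, carried by 6 GOF UMIs, turned to 0.19 at resolution 0.5.

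Over all alternatives the log2 ratio of Dcn ran from 0.80 (under that matching) to 1.75 in cluster 10 and from 1.11 to 1.69 in cluster 7, and that of Vcan from -1.71 to -1.18 in cluster 10 and from -1.45 to -1.28 in cluster 17. Male-called cells alone moved 32 of 60 ratios, the most of any alternative, out of their intervals, and Vcan in cluster 7 came to -0.54. Postn in cluster 10 ran from -2.37 to -0.83, short of 2-fold at resolutions 0.5 and 2 and with the members in the clustering. Col14a1 in cluster 11 came to 0.86 at resolution 0.5 and 0.95 at resolution 2. Dcn in cluster 3 ran from -1.79 to -0.80, on either side of 2-fold. With male-called cells alone, Thbs1 in cluster 7 came to -0.85 and Ogn in cluster 11 to -0.87, while Postn in clusters 11 (-1.35) and 17 (-1.44), Col14a1 in cluster 7 (1.12) and Thbs1 in cluster 18 (-1.13) moved past 2-fold. The causes were not tested. The matching by most cells, leaving out clusters of mostly 1 library, and subtracting the level of cluster 13 were chosen after the data were seen, and the last left 16 of 57 pairs past 2-fold.

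No paired analysis was possible because each genotype had 1 library, and no library was left out for the same reason. Precision is limited by depth for Ogn, Vcan outside hedgehog-high cells, and every ratio resting on under 10 UMIs.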
